A study of Homo sapiens with 9 samples.

Results

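HK-2, an immortalized human line of renal proximal tubular epithelial cells, was compared after culture with advanced glycation end products (AGEs) and without them, in cells that all carried a control shRNA. The 3 libraries titled shCtrl-AGEs are called AGEs here and the 3 titled shCtrl-Normal are called Ctrl. These are 6 of the 9 libraries of the study, and the other libraries, in which JMJD1A was silenced under AGEs, entered one alternative fit only. The counts used here cover 49 genes in every library, and the comparison was run over all 49, those that stayed flat included. The AGEs cells received 400 µg/ml AGEs for 72 h. The same treatment text stands on every sample of the study, so the groups were taken from the titles and the shRNA label. The cells are of a single line, and the labels do not state if replicates were grown as separate cultures. The p-values therefore cover the spread seen among the 6 libraries, which for most genes was pooled over genes and may be technical.

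AGEs are proteins and lipids that sugars have modified without an enzyme. They accumulate in diabetes and bind the receptor RAGE, whose signals are known to raise oxidative stress and inflammation. In tubular epithelium they are used to model the loss of epithelial character and the matrix deposition of diabetic kidney disease. The comparison asks which transcripts of tubular cells move when AGEs are added.

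All 49 gene IDs matched GENCODE release 44 on GRCh38, the assembly to which the reads were mapped, and 48 are protein-coding. They are 49 of the 52 annotated genes whose Ensembl numbers run up to the highest number held, so they follow the numbering of the genes and no response to AGEs. The counts of these genes summed to 85894 to 98250 in the AGEs libraries and to 99729 to 107036 in the Ctrl libraries. The sums did not overlap, and 4 of the 9 genes reported below as higher had a lower mean raw count in AGEs. They are not library depths, and whether they reflect depth or the level of these genes cannot be told apart. Counts were therefore scaled among the genes themselves by edgeR's trimmed mean of M-values (TMM), so each change below is relative to the other genes. A normalised count is a count divided by this scaled total and multiplied by its mean over the 6 libraries. No 2 libraries had identical counts, and over 44 degrees of freedom the chi-square between libraries without CD99 was 183 to 448 within a group and 1113 to 1610 between groups. That measure weighs genes by their counts. The root mean square log2 difference over the same genes, which weighs them equally, overlapped at 0.299 to 0.386 within a group and 0.289 to 0.566 between groups. On the first principal component, with CD99 included (44.9% of the variance), the Ctrl libraries lay at 1.85, 0.99 and −0.79. The AGEs libraries lay at −0.39, −1.96 and 0.29, so it did not separate the groups. The second component (30.9%) did so narrowly, with AGEs at 1.73, 0.053 and 0.47 and Ctrl at 0.045, −0.71 and −1.59. Without CD99 neither of these components separated the groups. Of 11 proximal tubule markers only LAP3 was among the genes, so the cell label could not be checked. The leukocyte genes FGR and CD38 had 0 to 2 counts in each library.

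After edgeR's filter 46 genes were tested, and 15 of them (32.6%) passed a Benjamini-Hochberg adjusted p of 0.05 in edgeR's quasi-likelihood test. 9 rose (19.6%) and 6 fell (13%). NIPAL3 and CFLAR rose most among the genes that passed, and KLHL13 and RAD52 fell most. The changes were small. The median size of the change over all tested genes was 1.12-fold, 14 of the 15 genes that passed changed by less than 1.5-fold, and 0 (0%) reached 2-fold. Without adjustment 22 genes (47.8%) had a p under 0.05 in edgeR's test, and again 0 of them reached 2-fold. DESeq2's Wald test likewise gave 0 genes past 2-fold. The median log2 fold change over the 46 genes was −0.0073, with 21 genes above 0 and 25 below. In all 15 genes that passed the libraries of AGEs and Ctrl did not overlap, as in 20 of the 46 genes tested (43.5%).

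**Figure D1:**
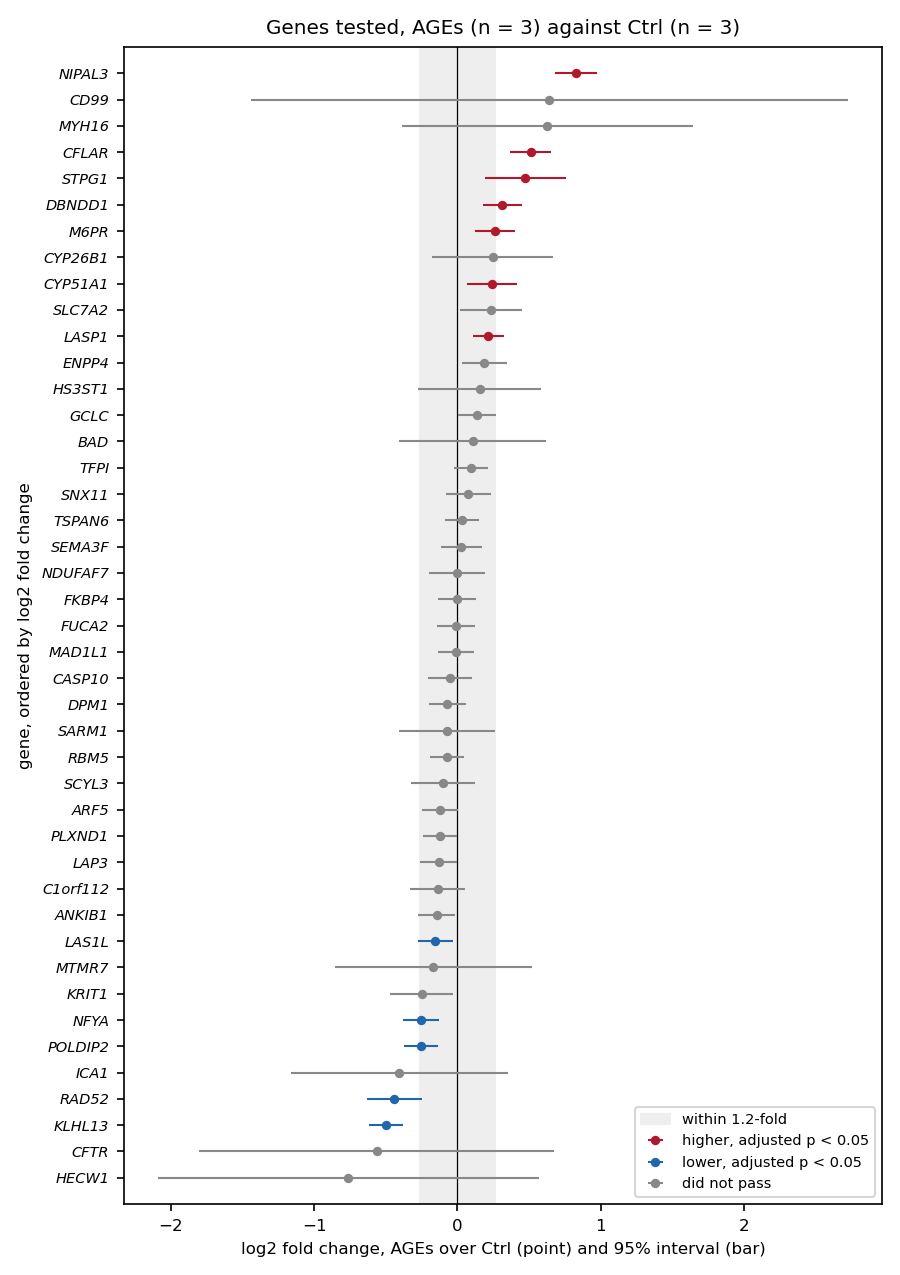
Log2 fold change of AGEs over Ctrl (horizontal axis) for 43 of the 46 genes tested, with its 95% interval from edgeR's fit and n = 3 libraries per group; red genes rose, blue genes fell, grey genes did not pass, and the shaded band marks a change of under 1.2-fold. Most intervals are narrow and lie near 0, NIPAL3 stands apart at 0.82, and the widest interval is that of CD99.

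The split between higher and lower depended on the scaling, the filter and the genes and groups fitted. With DESeq2's size factors 7 rose and 6 fell, and without LASP1 9 rose and 5 fell. With plain totals of these genes 6 rose and 11 fell. Leaving out CD99, an alternative chosen after seeing the data, gave 7 higher and 9 lower. With no filter on low counts 6 rose and 7 fell, and with a minimum mean count of 50 the numbers were 7 and 7. With all 3 groups in one fit 5 rose and 6 fell. All 15 genes kept their direction under each of these that held them and under every other alternative fit. The exact permutation test, which borrows nothing across genes, passed 0 genes, since 3 libraries against 3 cannot go below p = 0.1. edgeR's test drew on a median of 184 degrees of freedom, of which the libraries of a gene supply 4 and the other genes the rest. Only CD99, BAD and SEMA3F drew on fewer (4, 4.7 and 75.1). For the other genes the p-value and standard error rest on a spread pooled over genes and little on that of the gene itself.

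NIPAL3, a member of the NIPA family of magnesium transporters, showed the largest change among the genes that passed. Its normalised counts were 592, 599 and 647 in Ctrl and 1040.0, 1097 and 1118 in AGEs. The AGEs libraries all lay above the Ctrl libraries, by 1.77-fold in the fit (95% interval 1.6 to 1.96). The log2 fold change was 0.82 with a standard error of 0.0747 and an adjusted p of 2.11e-20 (edgeR's quasi-likelihood test). Over the alternatives other than the permutation test the adjusted p reached 9.34e-06 (edgeR with no robust estimation). STPG1, its neighbour on the opposite strand, encodes a protein with sperm-tail PG-rich repeats. Its counts were 163, 140.1 and 155 in Ctrl and 213, 221 and 200.3 in AGEs, again with no overlap, and its rise of 0.47 (log2) had a standard error of 0.144 and an adjusted p of 0.00512 (edgeR's quasi-likelihood test). Without AGEs replicate 1 or without AGEs replicate 2 STPG1 did not pass, with an adjusted p of at most 0.0571 over the alternatives (edgeR). The annotated genes overlap by 1133 bases at their 5′ ends. Since the strand setting of the counting is not given in the sources used here, reads from the pair cannot be told apart in that stretch. The same limit holds for 31 of the 49 genes, which share exon bases with a gene on the other strand.

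The RefSeq promoter windows (GRCh38.p14) of this pair of divergent genes are shown, together with those of CFLAR and KLHL13, the other genes with the smallest p-values. Each has 250 bases up to a RefSeq start site of the gene, read 5′ to 3′ on the strand of the gene. Capitals mark exact matches on either strand to CCAAT, the core bound by NF-Y, and to ACGTG, a core of the hypoxia response element. TGACTCA, the AP-1 site, was also searched and had no match in these 4 windows. The windows lie at chr1:24415552-24415801 (plus strand), chr1:24415045-24415294 (minus), chr2:201118466-201118715 (plus) and chrX:118116811-118117060 (minus). Only the window of NIPAL3 ends at the 5′ end that GENCODE gives, 24415802. GENCODE places the 5′ ends of STPG1, CFLAR and KLHL13 further upstream, at 24416934, 201116154 and 118117340. Their windows therefore lie inside the annotated genes and belong to start sites other than the outermost.
NIPAL3: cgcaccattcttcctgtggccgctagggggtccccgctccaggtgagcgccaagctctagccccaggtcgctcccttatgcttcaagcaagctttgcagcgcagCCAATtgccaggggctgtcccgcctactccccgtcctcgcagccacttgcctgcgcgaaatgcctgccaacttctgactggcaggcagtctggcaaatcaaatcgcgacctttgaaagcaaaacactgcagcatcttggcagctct
STPG1: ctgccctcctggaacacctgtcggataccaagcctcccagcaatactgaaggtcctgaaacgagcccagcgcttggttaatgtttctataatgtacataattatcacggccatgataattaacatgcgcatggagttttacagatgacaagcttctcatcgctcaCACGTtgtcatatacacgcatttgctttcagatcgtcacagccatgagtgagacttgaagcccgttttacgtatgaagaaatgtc
CFLAR: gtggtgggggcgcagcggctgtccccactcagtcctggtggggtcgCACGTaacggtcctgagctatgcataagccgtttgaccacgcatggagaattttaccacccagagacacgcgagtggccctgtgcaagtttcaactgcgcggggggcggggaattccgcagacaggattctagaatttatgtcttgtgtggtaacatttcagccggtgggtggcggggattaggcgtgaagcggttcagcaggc
KLHL13: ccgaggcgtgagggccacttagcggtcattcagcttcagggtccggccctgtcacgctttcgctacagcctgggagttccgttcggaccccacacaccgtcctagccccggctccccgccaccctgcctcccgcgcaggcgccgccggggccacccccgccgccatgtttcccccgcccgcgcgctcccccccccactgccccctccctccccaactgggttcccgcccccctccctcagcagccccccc

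The windows of NIPAL3 and STPG1 lie 257 bases apart, and they share no marked core. NIPAL3 holds CCAAT, STPG1 and CFLAR hold ACGTG, and KLHL13 holds neither. A RefSeq window was matched for 39 of the 49 genes. ACGTG occurred in 3 of 6 windows of genes that rose, 0 of 5 of genes that fell and 2 of 25 of genes that did not pass, where 18.5% of all 35116 windows of this length hold it. CCAAT occurred in 2 of 6, 2 of 5 and 7 of 25, where 32% of all windows hold it. TGACTCA occurred in 1 of the 39 windows, that of FUCA2, where 4.2% of all hold it. These matches are letters in a window and no measured binding.

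The apoptosis list held 4 genes, of which 1 rose, 0 fell and 3 did not pass, with a median log2 fold change of 0.027 beside −0.0073 over all genes, where 19.6% rose. CFLAR encodes c-FLIP, which blocks the activation of initiator caspases at death receptors, and lies on chromosome 2 from 201116154 to 201176687. Its normalised counts were 4621, 4895 and 4386 in Ctrl and 6620.0, 6429.6 and 6742 in AGEs, a rise of 1.42-fold (95% interval 1.29 to 1.57) with no overlap of the groups. The log2 fold change was 0.51 (standard error 0.071, adjusted p = 2.63e-10 by edgeR's quasi-likelihood test). Over the alternatives other than the permutation test the adjusted p reached 0.0118 (edgeR with all 3 groups in one fit). CASP10, an initiator caspase of the same pathway, starts 6184 bases after the end of CFLAR. It had 677, 682 and 639 in Ctrl and 664, 584 and 678 in AGEs, and its interval, −0.21 to 0.10 on the log2 scale, lay below the whole interval of CFLAR, 0.37 to 0.65. The neighbours thus gave separate values, and CASP10 stayed within 1.2-fold, though not with plain totals or with all 3 groups in one fit. BAD, which promotes the mitochondrial path of apoptosis, had 425, 432 and 639 in Ctrl and 488, 557 and 566 in AGEs. Ctrl replicate 3 was the highest library of BAD, and its interval ran from −0.41 to 0.62 around an estimate of 0.11. Without that library BAD passed as higher, at 0.32 (0.15 to 0.50, adjusted p = 0.00193 by edgeR). SARM1, an NAD+-cleaving enzyme of axon degeneration, gave −0.071 (−0.41 to 0.26).

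Among the ubiquitin ligase genes 0 rose, 1 fell and 2 did not pass, where 13% of all genes tested fell and 32.6% passed in either direction. With 3 members the median of −0.50 is the value of KLHL13 itself. KLHL13 is an adaptor that brings substrates to CUL3, Aurora B in mitosis among them, and lies on chromosome X from 117897813 to 118117340. Its normalised counts were 2609.8, 2679 and 2595 in Ctrl and 1786, 1744 and 2044 in AGEs. The Ctrl libraries were close together, and AGEs replicate 3 was the highest of its group but still below them. KLHL13 fell by 0.50 on the log2 scale (standard error 0.0598, adjusted p = 3.36e-13 by edgeR's quasi-likelihood test) and was the most reduced of the genes that passed. Over the alternatives other than the permutation test the adjusted p reached 0.000171 (edgeR with no robust estimation). ANKIB1, a ligase of the RING-between-RING type, had 3635, 3636 and 3310.2 in Ctrl and 3269.5, 3159 and 3139.6 in AGEs. Its groups did not overlap, but at −0.15 it did not pass (adjusted p = 0.0675, edgeR's quasi-likelihood test). HECW1, a HECT ligase, had 23, 12 and 4 counts as deposited in Ctrl and 5, 2 and 12 in AGEs, too few to bound its change (95% interval −2.09 to 0.57).

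DNA repair and mitosis genes, a list that holds KLHL13 as well, counted 0 higher, 2 lower and 2 that did not pass, beside 13% lower over all genes, with a median of −0.29. KLHL13 is 1 of the 2. RAD52, which anneals strands in recombination repair, had 467, 484 and 441 in Ctrl and 340.2, 327 and 359.8 in AGEs. The groups lay apart, and RAD52 fell by 0.44 (standard error 0.0976, adjusted p = 9.1e-05 by edgeR's quasi-likelihood test). Over the alternatives other than the permutation test the adjusted p reached 0.00588 (edgeR with all 3 groups in one fit). C1orf112, whose product works with the AAA ATPase FIGNL1 at sites of recombination, gave −0.14 (−0.33 to 0.054) with overlapping groups. MAD1L1, of the spindle checkpoint, had 1630.3, 1600.1 and 1649 in Ctrl and 1489, 1783 and 1573 in AGEs and stayed within 1.2-fold (−0.13 to 0.11).

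TFPI, which blocks the start of coagulation by tissue factor, had 1814, 1875 and 1796 in Ctrl and 2032, 1943 and 1877 in AGEs. Its lowest AGEs library lay barely above its highest Ctrl library, and TFPI stayed within 1.2-fold (−0.026 to 0.21, adjusted p = 0.24 by edgeR's quasi-likelihood test). With all 3 groups in one fit its interval reached beyond 1.2-fold (−0.166 to 0.285).

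Of the glutathione and redox genes 0 rose, 1 fell and 2 did not pass (median −0.13, beside 13% lower over all genes). POLDIP2, a partner of DNA polymerase delta that also raises the activity of the oxidase NOX4, had 2497, 2446 and 2698 in Ctrl and 2133, 2214 and 2045 in AGEs. It fell by 0.26 on the log2 scale without overlap (standard error 0.06, adjusted p = 0.000189 by edgeR's quasi-likelihood test). GCLC, the catalytic subunit of the first enzyme of glutathione synthesis, had 1017, 1045 and 1167 in Ctrl and 1159, 1117 and 1279 in AGEs. Its groups overlapped, at a log2 fold change of 0.14 (0.0046 to 0.27, adjusted p = 0.0936 by edgeR's quasi-likelihood test). LAP3, an aminopeptidase that also splits the cysteinyl-glycine left by glutathione breakdown, had 1383, 1353 and 1467 in Ctrl and 1227, 1318 and 1296 in AGEs. LAP3 was lower in every AGEs library but by −0.13 only, and did not pass (adjusted p = 0.101, edgeR's quasi-likelihood test).

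Transcription, RNA and ribosome assembly counted 0 higher, 2 lower and 1 that did not pass (median −0.16), again beside 13% lower over all genes. The lists are too small to set against that share. NFYA, the DNA-binding regulatory subunit of the CCAAT factor NF-Y, had 1653, 1625 and 1601 in Ctrl and 1373, 1403 and 1318 in AGEs. The libraries of each group lay close together, and NFYA fell by 0.25 (standard error 0.0639, adjusted p = 0.000627 by edgeR's quasi-likelihood test). LAS1L, an endonuclease partner in the processing of ribosomal RNA for the large subunit, had 1874, 1807 and 1814 in Ctrl and 1659.9, 1644 and 1629 in AGEs. LAS1L fell by 0.16, the smallest fall that passed (adjusted p = 0.0397 by edgeR's quasi-likelihood test, 0.00345 to 0.178 over the alternatives). It lost its call without LASP1, without AGEs replicate 1 or 3 and without Ctrl replicate 1 or 2. RBM5, a splicing regulator, had 1948, 2047 and 1847 in Ctrl and 1772, 1821 and 1966 in AGEs and stayed within 1.2-fold (−0.19 to 0.048). With all 3 groups in one fit its interval reached just beyond 1.2-fold (−0.266 to 0.049).

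**Figure D2:**
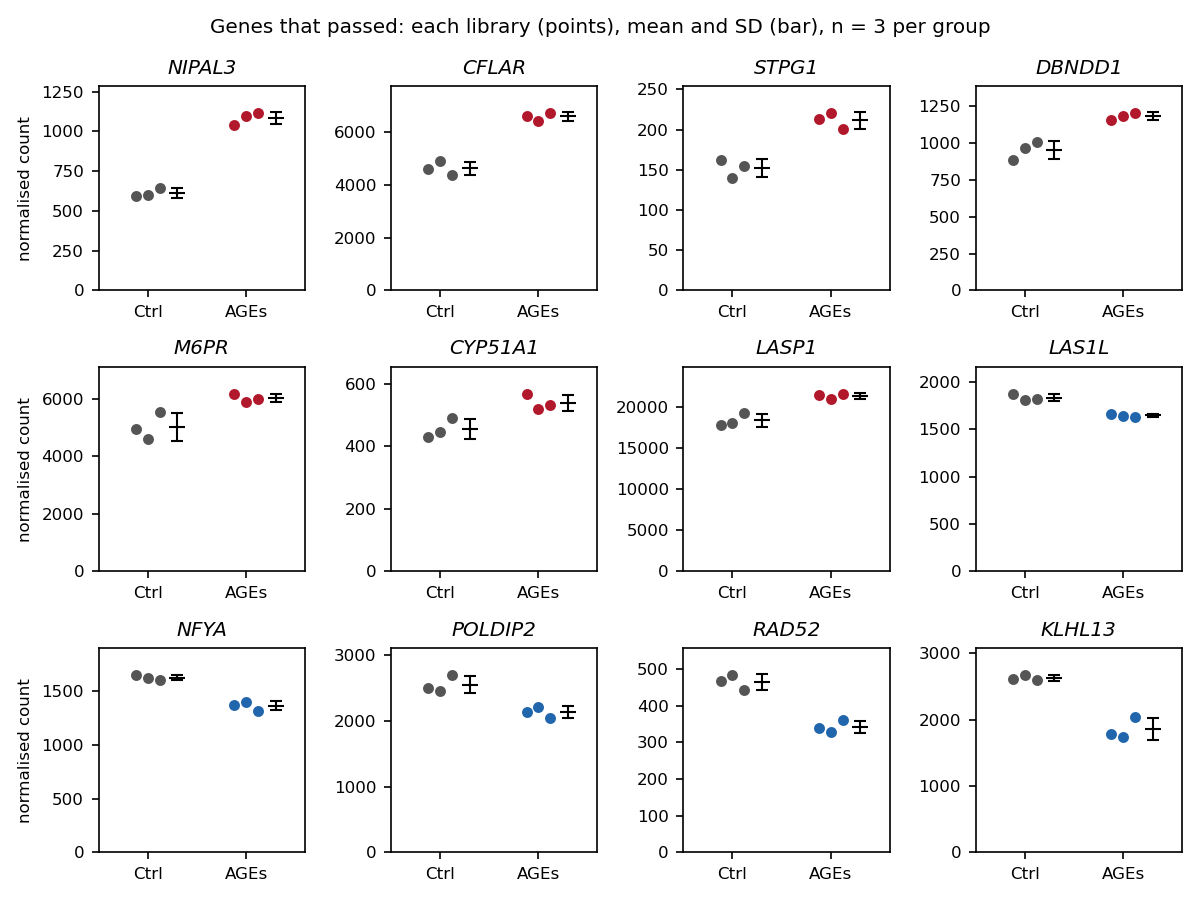
Normalised count (vertical axis, from 0) of 12 of the 15 genes that passed, with 3 Ctrl libraries in grey and 3 AGEs libraries in red for genes that rose or blue for genes that fell; the bar beside each group is its mean and SD. In every panel the libraries of the groups lie apart, most widely for NIPAL3 (612 ± 29.9 against 1085 ± 40.3).

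Genes of lysosome, endosome and Golgi trafficking included M6PR and ARF5. M6PR, the cation-dependent receptor that carries mannose 6-phosphate tagged enzymes to lysosomes, had 4953, 4592 and 5548 in Ctrl and 6181, 5886 and 6013 in AGEs. It rose by 0.26 (standard error 0.0707, adjusted p = 0.00139 by edgeR's quasi-likelihood test) and lost its call with all 3 groups in one fit (adjusted p = 0.0549, edgeR). ARF5, a GTPase of vesicle budding, had 2859, 3017 and 3025 in Ctrl and 2817, 2468 and 2888 in AGEs. AGEs replicate 2 was the lowest library, AGEs replicate 3 lay above Ctrl replicate 1, and ARF5 stayed within 1.2-fold (−0.25 to 0.00047). With plain totals and with all 3 groups in one fit its interval reached beyond 1.2-fold. It did so as well, by less, with DESeq2's size factors or Wald test and with the replicate block. The same held with no filter and with a minimum mean count of 50. FUCA2, a fucosidase, SNX11, a sorting nexin, and SCYL3, a pseudokinase of the Golgi, gave −0.0091, 0.076 and −0.10. MTMR7, a phosphoinositide phosphatase, had 22, 50 and 30 counts as deposited in Ctrl and 26, 29 and 21 in AGEs, and its interval was −0.85 to 0.52.

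For actin, adhesion and junctions 1 gene rose, 0 fell and 4 did not pass (median 0.21, beside 19.6% higher over all genes). LASP1, an actin-binding protein of focal adhesions, had the highest normalised count per kb of exon of all 46 genes, 2605 in Ctrl. Its counts were 17810.4, 18039 and 19323 in Ctrl and 21412, 20919 and 21629 in AGEs. The groups lay apart at a log2 fold change of 0.21 (standard error 0.055, adjusted p = 0.000751 by edgeR's quasi-likelihood test). KRIT1, which stabilizes junctions downstream of the GTPase RAP1, had 332, 334 and 307 in Ctrl and 273, 240.1 and 305 in AGEs. AGEs replicate 3 came within reach of the lowest Ctrl library, and at −0.25 KRIT1 did not pass (adjusted p = 0.0645, edgeR's quasi-likelihood test). KRIT1 and ANKIB1 overlap by 193 bases on opposite strands, and both estimates lay below 0. TSPAN6, a tetraspanin, had 1914, 1923 and 2012 in Ctrl and 2032, 1861 and 2073 in AGEs and stayed within 1.2-fold (−0.09 to 0.15). MYH16, a myosin pseudogene in humans, had 12, 12 and 14 counts as deposited in Ctrl and 9, 25 and 15 in AGEs. AGEs replicate 1 was the lowest of all 6 libraries and AGEs replicate 2 the highest, and the interval was −0.39 to 1.64.

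CD99, a cell surface glycoprotein, varied more between libraries of a group than any other gene with a mean count of at least 50. Its normalised counts were 467, 336 and 118 in Ctrl and 826, 259 and 346 in AGEs. Ctrl replicate 3 held the lowest and AGEs replicate 1 the highest value. The SD was 57.5% in Ctrl and 64% in AGEs as a percent of the mean, where the median gene with a mean count of at least 50 had 5.22% and 5.39%. Its log2 fold change of 0.64 had a 95% interval of −1.44 to 2.72, the widest of all genes, and over the alternatives the estimate ran from −0.038 to 1.08. CD99 rested on 4 degrees of freedom, since the robust fit did not pool its spread with that of the other genes. Without CD99, as given above, 16 genes passed.

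**Figure D3:**
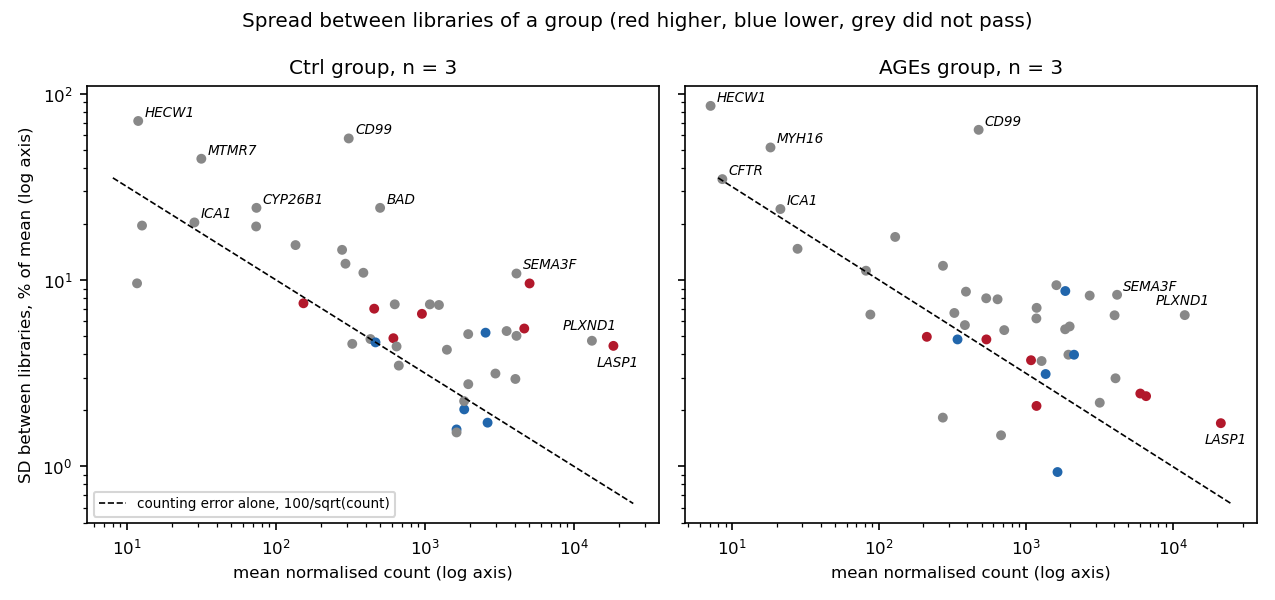
SD between the 3 libraries of a group as a percent of their mean (vertical log axis) against the mean normalised count (horizontal log axis), for 43 of the 46 genes tested, in Ctrl and in AGEs; the dashed line is the spread that counting error alone would give. CD99 lies far above the line in both groups, BAD does so in Ctrl, and many genes of high count, such as SEMA3F and PLXND1, also lie above it.

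Most genes varied more between libraries than counting alone gives. The variance within groups, as a multiple of the Poisson value, was above 1 in 40 of 46 genes, with a median of 3.55. It was 145 for CD99, 39.9 for PLXND1, 39 for SEMA3F, 26.6 for M6PR and 1.49 for NIPAL3.

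Ion and amino acid transport counted 1 higher (NIPAL3), 0 lower and 2 that did not pass (median 0.23, beside 19.6% higher over all genes). SLC7A2, a transporter of arginine and lysine, had 316, 236 and 279 in Ctrl and 348, 324 and 305 in AGEs. Ctrl replicate 1 lay among the AGEs libraries, and at 0.23 SLC7A2 did not pass (adjusted p = 0.0817, edgeR's quasi-likelihood test). CFTR, the chloride channel, had 14, 16 and 11 counts as deposited in Ctrl and 5, 9 and 9 in AGEs. At this depth its change lay anywhere from −1.80 to 0.68 on the log2 scale.

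Cytochrome P450 enzymes counted 1 higher and 1 that did not pass (median 0.24, beside 19.6% higher over all genes). CYP51A1, the demethylase of lanosterol in cholesterol synthesis, had 429.9, 445 and 491 in Ctrl and 568, 518 and 529.9 in AGEs. Its groups lay apart, with a log2 fold change of 0.24 and an adjusted p of 0.0264 (edgeR's quasi-likelihood test), which ran from 0.00332 to 0.446 over the alternatives. The call held in 8 of 16. It was lost among others without AGEs replicate 1 and without Ctrl replicate 1 or 2. CYP26B1, which breaks down retinoic acid, had 53.6, 88.4 and 79.1 in Ctrl and 84, 93.8 and 83.8 in AGEs. Its estimate was also 0.24, but the groups overlapped and the interval ran from −0.18 to 0.67.

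NDUFAF7, an assembly factor of respiratory complex I, had the estimate nearest to 0 of all genes, −0.0032 (−0.20 to 0.19). DBNDD1, which is in no list, had 885, 963 and 1009 in Ctrl and 1156, 1186 and 1205 in AGEs, a rise of 0.31 without overlap (standard error 0.0688, adjusted p = 9.1e-05 by edgeR's quasi-likelihood test). The gene overlaps GAS8 on the opposite strand. ENPP4, an ectoenzyme that splits dinucleotides, had 602, 595 and 679 in Ctrl and 699.8, 682 and 756 in AGEs. Its groups lay apart but it missed the threshold (adjusted p = 0.0515, edgeR's quasi-likelihood test).

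Axon guidance had 0 genes past the threshold in either direction among 3 (median −0.071). PLXND1, a semaphorin receptor, had 13879.5, 12666 and 13027 in Ctrl and 12894, 11324 and 12092 in AGEs. AGEs replicate 1 lay above one Ctrl library, and the interval of −0.24 to −0.0067 lay within 1.2-fold (adjusted p = 0.0884, edgeR's quasi-likelihood test). PLXND1 passed as lower in 5 of 16 alternatives, at −0.19 (−0.29 to −0.086, adjusted p = 0.00195 by edgeR) with plain totals and −0.18 (adjusted p = 0.0257) without AGEs replicate 1. SEMA3F, a secreted semaphorin, gave 0.028 (−0.11 to 0.17). Protein glycosylation and sulfation also had 0 of 3 past the threshold, with DPM1, of dolichol-phosphate mannose synthesis, at −0.07, FUCA2 at −0.0091 and HS3ST1, a heparan sulfate sulfotransferase, at 0.15. FKBP4, a co-chaperone of steroid receptors, gave −0.0056 (−0.14 to 0.13).

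A p that misses the threshold does not show that a gene stayed the same, so the intervals were read for the 31 genes that did not pass. In 14 of the 46 genes tested (30.4%), all among the 31, the whole 95% interval lay within a 1.2-fold change in either direction. These flat genes were TSPAN6, FUCA2, SEMA3F, CASP10, TFPI, RBM5, ARF5, PLXND1, LAP3, MAD1L1, FKBP4, DPM1, SNX11 and NDUFAF7. Flat means a small change and not none, since the intervals of PLXND1 (−0.242 to −0.0067) and LAP3 (−0.259 to −0.00086) lay below 0. With plain totals PLXND1, LAP3 and ARF5 passed as lower (edgeR), at −0.19 for all of them, with intervals that reached beyond 1.2-fold. Those of CASP10, DPM1 and NDUFAF7 reached just beyond it as well, with lower ends of −0.271, −0.266 and −0.265, without passing. With all 3 groups in one fit the intervals of PLXND1, LAP3, ARF5, CASP10, DPM1, NDUFAF7, TFPI and RBM5 reached beyond 1.2-fold. PLXND1, LAP3 and ARF5 were flat in few of the fits. Their lower ends were −0.2638, −0.272 and −0.268 with DESeq2's size factors and −0.275, −0.278 and −0.265 with no filter. LAP3 and ARF5 also reached beyond 1.2-fold with DESeq2's Wald test and with a minimum mean count of 50, and ARF5 with the replicate block. PLXND1 did so without LASP1 and without robust estimation. LAP3 also passed without AGEs replicate 2, at −0.16 (adjusted p = 0.0484, edgeR). The narrowest intervals were those of PLXND1, TSPAN6, RBM5, TFPI, ARF5 and MAD1L1, in that order. Outside the flat genes, ANKIB1 passed in 5 of 16 alternatives, KRIT1 in 4, ENPP4 and GCLC in 3 each and SLC7A2 in 1. A further 8 of the 31 were bounded within 1.5-fold, and 9 were not. Of these 9, MYH16, HECW1, ICA1, CFTR and MTMR7 had a mean count under 50 in Ctrl, and CD99, BAD, CYP26B1 and HS3ST1 had more. A change of 2-fold was outside the interval of 41 of the 46 genes, and inside that of CD99, MYH16, HECW1, ICA1 and CFTR. ICA1, an autoantigen of islet cells, had 25, 36 and 31 counts as deposited in Ctrl and 22, 14 and 22 in AGEs. The number of flat genes was 7 with all 3 groups in one fit and 9 without AGEs replicate 3.

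The 3 genes below the filter were WNT16, FGR and CD38. WNT16, a WNT ligand, had 3, 3 and 3 counts in Ctrl and 3, 4 and 2 in AGEs. FGR, a kinase of myeloid cells, had 0, 0 and 0 and 2, 0 and 0, and CD38, an NAD+-cleaving ectoenzyme of leukocytes, had 1, 0 and 1 and 0, 0 and 0. No difference was detectable for these genes at this depth.

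**Figure D4:**
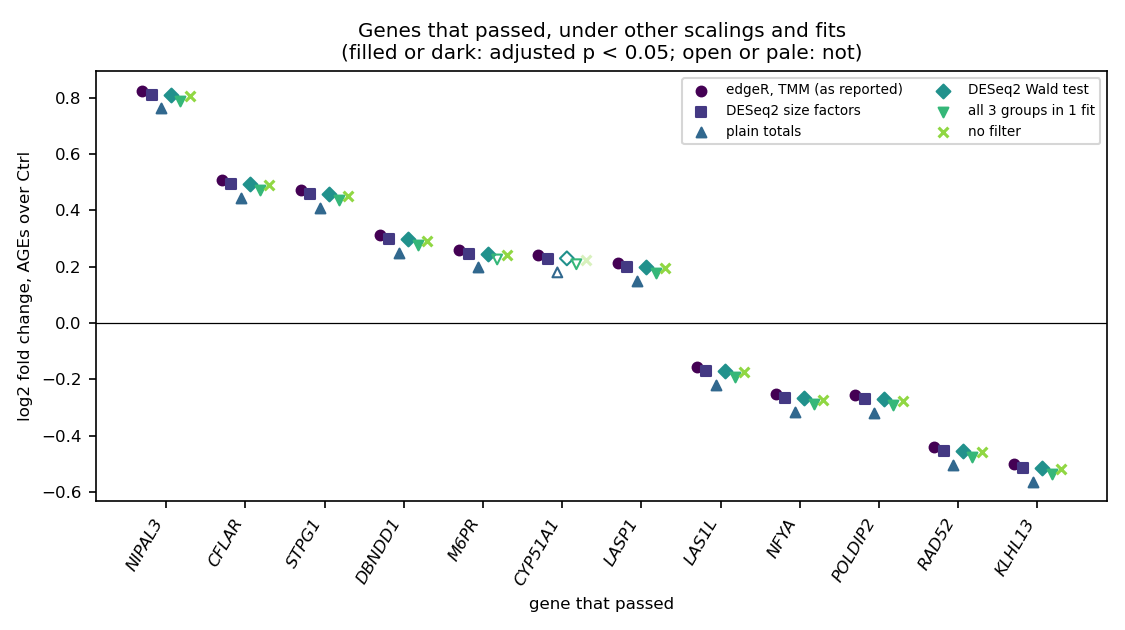
Log2 fold change of AGEs over Ctrl (vertical axis) for 12 of the 15 genes that passed, under edgeR with TMM as reported and under 5 other scalings, tools or filters (marker shape and colour); filled or dark markers passed an adjusted p of 0.05, open or pale ones did not. Every gene keeps its side of 0, plain totals move all of them down by a like amount, and CYP51A1 loses its call most often.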

How the data were processed

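The RNA is labelled as polyA RNA. The submitters' processing notes name FastQC, MultiQC, Trim Galore, HISAT2 2.1.0 on GRCh38, featureCounts and DESeq2. The authors deposited, for each gene, raw counts that are not normalised. The strand setting and annotation release are not given in the sources used here. Here the counts were tested with edgeR 4.0.16 (R 4.3.3). Low genes were removed by filterByExpr at a count of 10 and a total of 15, and the model was a robust quasi-likelihood fit on TMM-scaled totals with 3 against 3 libraries, no covariate and Benjamini-Hochberg adjustment over all genes tested. The standard error is the log2 fold change over the square root of F, and 95% intervals use the total degrees of freedom. Normalised counts are counts over the TMM-scaled total times its mean over the 6 libraries. The procedure was tested on simulated data. A gene was called flat where its interval lay within 1.2-fold.

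Lists, named genes and thresholds were chosen with earlier results of these data known. Values per library were given for genes past the threshold or with an unadjusted p under 0.05, the 6 flat genes with the narrowest intervals, genes with a log2 change of at least 0.5 that did not pass, and genes below the filter; CASP10, BAD and other genes given per library beyond these were chosen after their values were seen. The alternatives tried were DESeq2 1.42.0 (Wald test), its size factors within edgeR, plain totals, no robust estimation, a fit of all 3 groups, a block for the replicate number, tables without LASP1, without the filter or with a mean of 50 counts as filter, each library left out in turn, an exact permutation test (two-sided, log2 of the normalised count with a pseudocount of 1) and, added after seeing the data, no CD99. Of the genes that passed, 3 are not reported here by name or drawn, though they enter every count.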

Additional observations from a re-analysis of the deposited data

How the results depend on the processing

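Of the 15 genes that passed, 9 passed in every alternative fit run other than the exact permutation test, among them NIPAL3, KLHL13, CFLAR, DBNDD1, RAD52, POLDIP2, NFYA and LASP1 (the last in the 15 fits that held it). Some did so narrowly, with an adjusted p that reached 0.0488 for LASP1, 0.0403 for POLDIP2, 0.0314 for DBNDD1 and 0.00849 for NFYA (edgeR). The other 6, among them STPG1, LAS1L, CYP51A1 and M6PR, lost their call in at least 1, and 9 genes that had not passed did so in at least 1. No gene that passed changed direction in any of 16 alternatives. With all 3 groups in one fit the number higher was 5 and the number flat 7; with plain totals 11 were lower; the exact permutation test gave 0 higher, 0 lower and 0 in all. Leaving out one library at a time gave 11 to 19 genes past the threshold, 5 to 11 higher, 5 to 8 lower, 9 to 14 flat and 0 with a 2-fold change. The number higher was 5 without AGEs replicate 1. With the replicate number as a block 16 genes passed. Same-numbered libraries deviated together with correlations of −0.43 to 0.31 over 46 genes, and of the AGEs libraries only replicate 1 correlated best with its own number. With 3 libraries per group and deviations taken from the group mean, these correlations cannot show if same-numbered libraries were handled together. The fit as reported left the libraries unpaired. The sums of counts show no library depth, and low counts limited CFTR, HECW1, MYH16, ICA1 and MTMR7.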
